A study of Caenorhabditis elegans with 12 samples.

Results

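The 33 genes described here encode the subunits of the proteasome of Caenorhabditis elegans. They are all the genes in the deposited expression table whose name is pas, pbs, rpn or rpt followed by a number, 33 of 19568 genes in all. The pas and pbs genes, 7 of each, encode the alpha and beta rings of the core particle. The other 19 encode the regulatory particle, with 6 ATPases of its base (rpt-1 to rpt-6), 4 base subunits without ATPase activity (rpn-1, rpn-2, rpn-10 and rpn-13) and 9 lid subunits (rpn-3, rpn-5, rpn-6.1, rpn-6.2, rpn-7, rpn-8, rpn-9, rpn-11 and rpn-12). All 33 passed the filter on low values that was applied to every gene.

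The proteasome degrades proteins that carry ubiquitin chains in the cytosol and nucleus. Its core particle is a barrel in which the inner beta rings hold the protease sites and the outer alpha rings gate the entrance. The regulatory particle binds ubiquitinated proteins, removes their ubiquitin in the lid and unfolds and feeds them into the core with its ATPase ring. In this worm the transcription factor isoform SKN-1A, which is released from the endoplasmic reticulum and processed by PNG-1 and DDI-1, induces proteasome subunit genes when proteasome function is low.

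RNA was taken with Trizol from whole worms that had been fed HT115 bacteria and harvested at the fourth larval stage (L4), and stranded libraries were sequenced from both ends. There were 12 libraries, 3 for each of 4 genotypes: the double mutant lonp-1(cmh24)_mrps-38(P210L), the single mutants lonp-1(cmh24) and mrps-38(P210L), and the wildtype N2. LONP-1 degrades proteins in the matrix of mitochondria, and the product of mrps-38 belongs to the mitochondrial ribosome. The labels do not give the lesion in cmh24, the number of worms per library or whether replicates were separate cultures, so the p-values below measure the spread between labelled biological replicates. The values are read counts divided by the authors' size factors (normalized counts), and levels of different genes were compared on the authors' FPKM values, which also divide by gene length.

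Each library held from 22614493 to 22890539 reads in genes. The lonp-1 transcript stood at 1437 ± 43.7 normalized counts in the double mutant and 1340 ± 5.80 in lonp-1(cmh24), against 1613 ± 48.6 in mrps-38(P210L) and 1688 ± 61.9 in wildtype worms (SD, n = 3 each), and this level says nothing of the lesion; mrps-38 itself was not analysed here. Transcripts that accumulate as worms mature differed between the genotypes. The 32 genes for major sperm protein took 0.744% ± 0.017 of the reads in the double mutant, 0.161% ± 0.0070 in lonp-1(cmh24), 0.0072% ± 0.0083 in mrps-38(P210L) and 0.117% ± 0.0058 in wildtype worms (SD, n = 3 each). The 6 yolk protein genes took 2.45%, 0.949%, 0.0017% and 0.104% in the same genotypes, and no gene of either list was without reads in any genotype. Oocyte genes were higher for 11 of 11 in the double mutant and in lonp-1(cmh24), with median log2 fold changes of 3.22 and 3.28, and lower for 11 of 11 in mrps-38(P210L) (-1.68). Body wall muscle genes moved together: 6 of 6 were lower in the double mutant (-0.43), 6 of 6 lower in lonp-1(cmh24) (-1.01) and 6 of 6 higher in mrps-38(P210L) (0.32; 1 of 6 under total reads). Of 9 germline genes, 8 were higher in the double mutant, 4 higher and 2 lower in lonp-1(cmh24), and 9 lower in mrps-38(P210L). Of 3 intestine genes, 2 were higher in the double mutant, 0 in lonp-1(cmh24) and 1 in mrps-38(P210L), and 0 were lower. Of all genes, 40.9% were higher and 33.6% lower in the double mutant, 30.6% and 32.1% in lonp-1(cmh24), and 31.5% and 34.7% in mrps-38(P210L). Under total reads, 16.9% of all genes were higher in mrps-38(P210L). In mrps-38(P210L), replicate 3 had 0.0168% sperm reads, against 0.0025% in replicate 1 and 0.0024% in replicate 2. The part of these differences in the results on the proteasome genes was not tested. In whole worms, fewer cells of a type and less RNA per cell cannot be told apart.

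Per unit length, the core genes were more abundant than the regulatory genes in every genotype. Median FPKM over the 14 core genes was 146 in the double mutant, 172 in lonp-1(cmh24), 176 in mrps-38(P210L) and 188 in wildtype worms. Over the 19 regulatory genes it was 86.9, 92.4, 87.1 and 102. Core genes filled all 14 of the highest places among the 33 members in the double mutant and in wildtype worms, and 13 of the 14 in each single mutant. The highest regulatory gene in every genotype was rpn-11, the deubiquitinase of the lid. It had 121 ± 5.6 FPKM in the double mutant, 145 ± 10.1 in lonp-1(cmh24), 142 ± 2.1 in mrps-38(P210L) and 144 ± 1.6 in wildtype worms (SD, n = 3 each). In lonp-1(cmh24) it took place 12, above the core genes pas-1, pbs-2 and pbs-6, and rpt-2 was also above pbs-6. In mrps-38(P210L) rpn-11 took place 14, above pbs-3.

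The core genes lay within a narrow range of levels. The highest was the alpha ring gene pas-3 in the double mutant (211 ± 1.9 FPKM), in lonp-1(cmh24) (250 ± 4.0 FPKM) and in wildtype worms (275 ± 9.3 FPKM; SD, n = 3 each). In mrps-38(P210L) the beta ring gene pbs-5, which encodes the subunit with chymotrypsin-like activity, was first at 257 ± 19 FPKM, close to pas-3 at 247 ± 5.3 FPKM (SD, n = 3 each). The highest core gene exceeded the lowest by 1.73 times in the double mutant, 1.98 times in lonp-1(cmh24), 1.95 times in mrps-38(P210L) and 1.79 times in wildtype worms. Leaving out rpn-6.2, the corresponding spread of the regulatory genes was 2.04, 2.31, 2.38 and 2.33 times. With rpn-6.2, the lowest member in every genotype, it was 5.94, 12.6, 44.9 and 9.74 times.

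**Figure D1:**
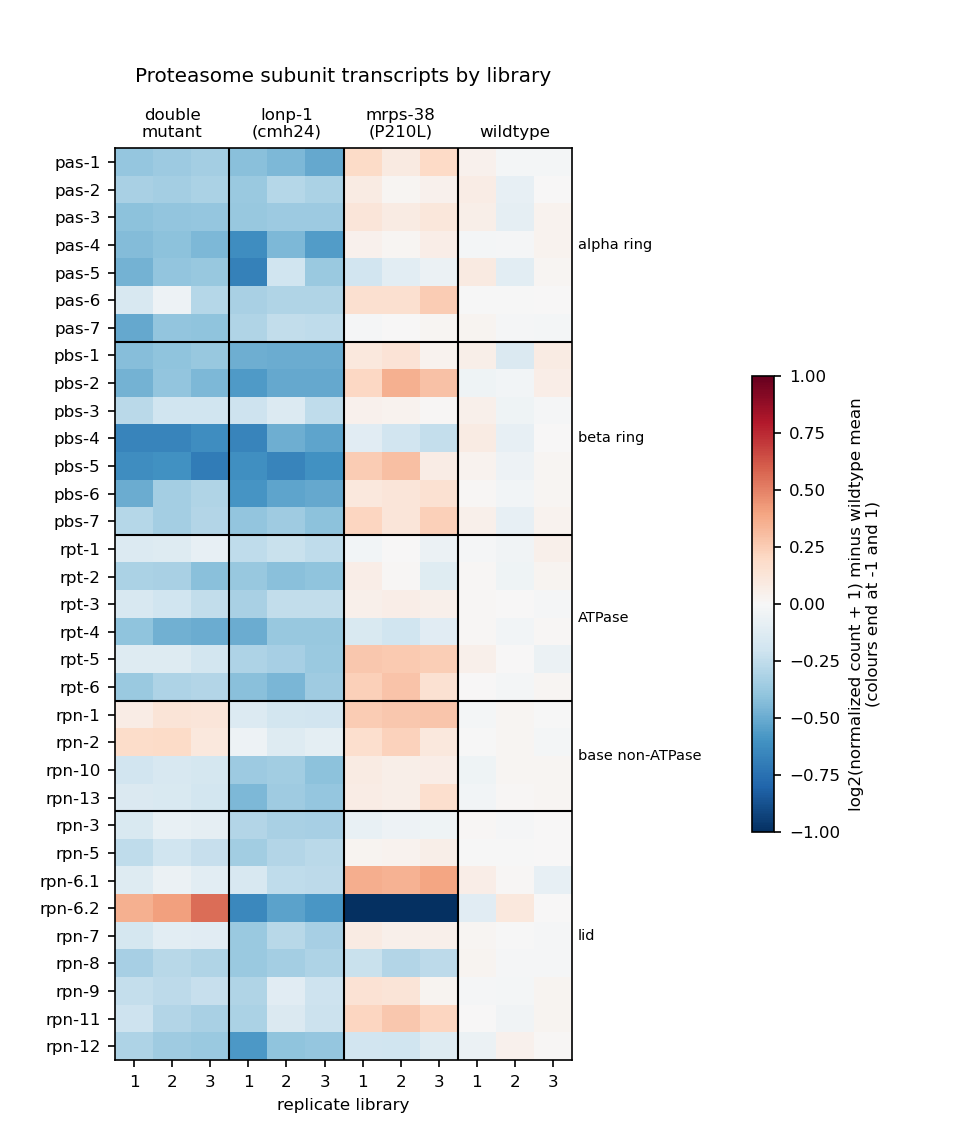
Each row is 1 of the 33 proteasome genes and each column 1 of the 12 libraries, coloured by the log2 normalized count relative to the gene's mean over wildtype worms, with colours ending at ±1. Most rows are low in the double mutant and lonp-1(cmh24) and near or above wildtype in mrps-38(P210L), and rpn-6.2 departs from them, with 114 to 155 normalized counts in mrps-38(P210L) against 472 to 550 in wildtype worms.

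The effect of the lonp-1 mutation alone was read from lonp-1(cmh24) against wildtype worms. Of the 33 proteasome genes, 32 were lower in lonp-1(cmh24) and 0 higher (limma on log2 normalized counts, adjusted p under 0.05 over 15717 genes), where 32.1% of all genes were lower and 30.6% higher. All 14 core genes and 18 of 19 regulatory genes fell. The median log2 fold change was -0.37 over the members (-0.44 over the core and -0.33 over the regulatory genes), against -0.06 over all genes tested. Genes as abundant as the members are a closer yardstick: of 1498 genes with a mean within the range of the members other than rpn-6.2, 52.8% were lower and the median was -0.20.

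How many members were called depended on the scaling of the libraries. Scaled to total reads, 17 were lower and 1 higher (20.5% and 41.6% of all genes), with a median of -0.14, and the median of all genes was then 0.17. The members' median stood 0.31 below that of all genes under the authors' size factors, under edgeR's trimmed mean (TMM) factors and under total reads alike. Without any 1 library, 32 or 33 members were lower under the authors' size factors.

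Among the core genes the largest decrease was that of pbs-5. It had 4073, 3924 and 4086 normalized counts in lonp-1(cmh24), against 6382, 5994 and 6286 in wildtype worms. The groups lay far apart, with a log2 fold change of -0.63 ± 0.06 (SE; limma, adjusted p = 1.01e-06). The beta ring genes pbs-4 (-0.56 ± 0.06), pbs-6 (-0.54 ± 0.05) and pbs-2 (-0.53 ± 0.05), of which pbs-2 encodes the subunit with trypsin-like activity, and the alpha ring gene pas-4 (-0.54 ± 0.05) followed. The smallest core decrease was that of pbs-3, another beta ring gene. It had 2500, 2636 and 2429 normalized counts in lonp-1(cmh24), against 2998, 2806 and 2872 in wildtype worms, groups that did not overlap (log2 fold change -0.20 ± 0.05; limma, adjusted p = 0.00234), and its log2 fold change was 0.031 under total reads.

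The most abundant core gene, pas-3, had 4194, 4233 and 4233 normalized counts in lonp-1(cmh24), against 5660, 5116 and 5584 in wildtype worms. Its log2 fold change was -0.37 ± 0.05 (limma, adjusted p = 1.32e-05). Replicates of pas-5 scattered most among the core genes, with 2905, 4039 and 3575 normalized counts in lonp-1(cmh24), against 4928, 4298 and 4685 in wildtype worms. Every lonp-1(cmh24) value of pas-5 was still below every wildtype value, and the log2 fold change was -0.41 ± 0.10 (limma, adjusted p = 0.00232); under total reads it was -0.18 and not called.

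In the regulatory particle the 6 ATPase genes had a median log2 fold change of -0.37, the 9 lid genes -0.31 and the 4 other base genes -0.27. The ATPase gene rpt-3 had 2717, 2859 and 2864 normalized counts in lonp-1(cmh24), against 3416, 3405 and 3357 in wildtype worms (log2 fold change -0.27 ± 0.04; limma, adjusted p = 8.84e-05), but under total reads it was at -0.042 and not called. The ubiquitin receptor rpn-10 had 2257, 2288 and 2190 normalized counts in lonp-1(cmh24), against 2825, 2954 and 2952 in wildtype worms (log2 fold change -0.37 ± 0.04; limma, adjusted p = 3.77e-06). In both genes the lonp-1(cmh24) libraries were all below the wildtype ones.

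The member that did not pass the test was rpn-2, which encodes a large scaffold subunit of the base. It had 4304, 4063 and 4150 normalized counts in lonp-1(cmh24), against 4440, 4514 and 4400 in wildtype worms. The log2 fold change of rpn-2 was -0.09 ± 0.05 (limma, adjusted p = 0.107), and with total reads it was 0.14 and called higher. Its partner in scaffolding the base, rpn-1, fell by 0.17 ± 0.04 on the log2 scale (limma, adjusted p = 0.00245), but was at 0.057 under total reads. The rpn-6.1 gene, which encodes a lid subunit that clamps core and base together, fell by 0.22 ± 0.05, and rpn-11 fell by 0.22 ± 0.05 (limma, adjusted p = 0.00159 and 0.00217). Under total reads, both stood at a log2 difference of about 0 (0.0048 for rpn-6.1 and 0.0058 for rpn-11).

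**Figure D2:**
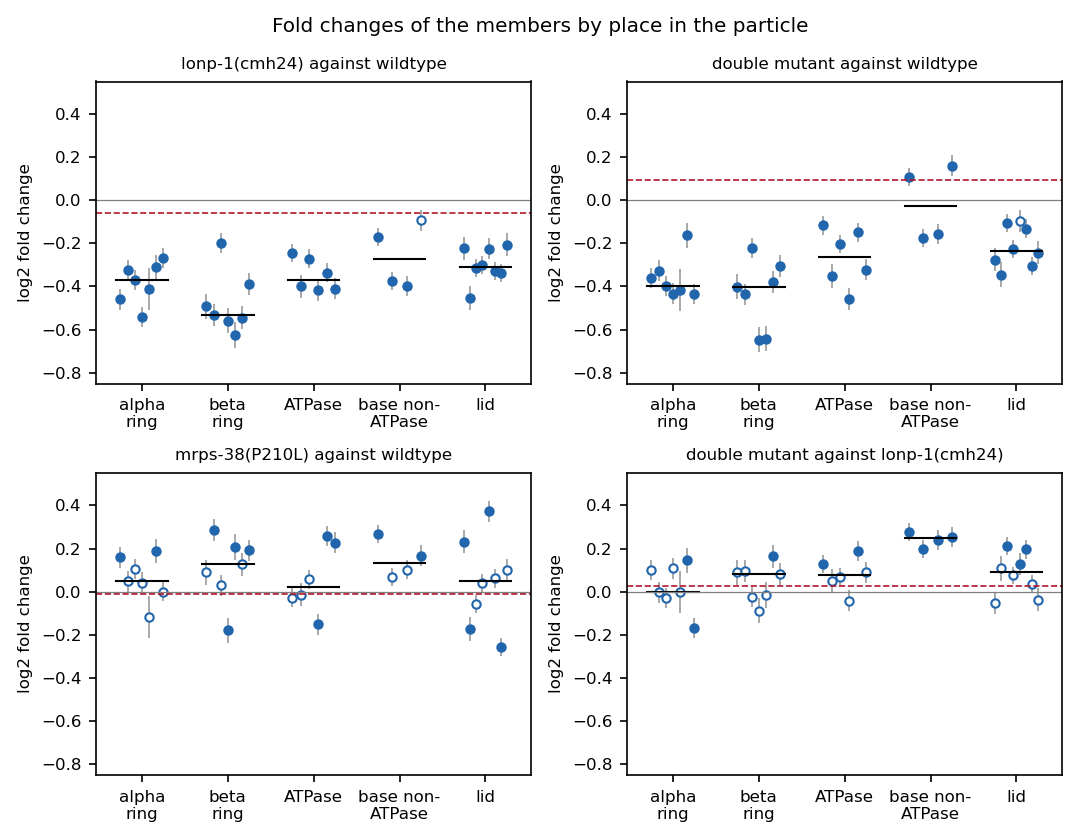
Points are the log2 fold changes of single proteasome genes (vertical axis) in 4 comparisons, set out by place in the particle, with thin bars for the SE, filled points for genes that passed limma's test, horizontal bars at the median of each set and the red dashed line at the median of all genes; rpn-6.2 is left out. In lonp-1(cmh24) against wildtype the median of the beta ring is -0.53 and that of the base genes without ATPase activity -0.27, and between the double mutant and lonp-1(cmh24) all 4 of these base genes lie above 0, at a median of 0.25.

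The ratio of core to regulatory transcripts does not depend on the scaling, since both are read in the same library. The mean log2 normalized count of the 14 core genes minus that of the 19 regulatory genes was 0.12, 0.15 and 0.15 in the double mutant, 0.26, 0.30 and 0.27 in lonp-1(cmh24), 0.51, 0.50 and 0.50 in mrps-38(P210L), and 0.42, 0.33 and 0.40 in wildtype worms. No genotype overlapped with another, and the order was mrps-38(P210L) highest, then wildtype, lonp-1(cmh24) and the double mutant. Wildtype replicate 2 was the lowest of its group. An exact permutation test of 3 against 3 libraries cannot go below p = 0.10, so no p-value is given for these differences.

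The difference from wildtype was -0.24 in the double mutant, -0.11 in lonp-1(cmh24) and 0.12 in mrps-38(P210L), and the double mutant stood 0.13 below lonp-1(cmh24). The gene rpn-6.2 weighed on these values. Without it, an alternative chosen after the data were seen, the measure was 0.030 ± 0.023 in the double mutant, 0.115 ± 0.022 in lonp-1(cmh24), 0.253 ± 0.010 in mrps-38(P210L) and 0.239 ± 0.045 in wildtype worms (SD, n = 3 each). The difference of mrps-38(P210L) from wildtype then shrank to 0.013 and the groups overlapped. The double mutant (-0.21) and lonp-1(cmh24) (-0.12) still lay below wildtype without overlap, as did the double mutant below lonp-1(cmh24) (-0.085).

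As shares of all reads in genes, the core genes took 0.199% ± 0.0016 in the double mutant, 0.226% ± 0.0085 in lonp-1(cmh24), 0.233% ± 0.0012 in mrps-38(P210L) and 0.261% ± 0.0043 in wildtype worms (SD, n = 3 each). The regulatory genes took 0.259% ± 0.0015, 0.274% ± 0.0059, 0.252% ± 0.0005 and 0.287% ± 0.0049 (SD, n = 3 each). All 33 together were below wildtype in every mutant library. The coding lengths of the core genes (606 to 852 bases) and regulatory genes (750 to 2943 bases) differ. In lonp-1(cmh24) against wildtype, the median log2 fold change was -0.09 over the 1993 genes with a coding length in the core range and -0.04 over the 9346 genes in the regulatory range.

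**Figure D3:**
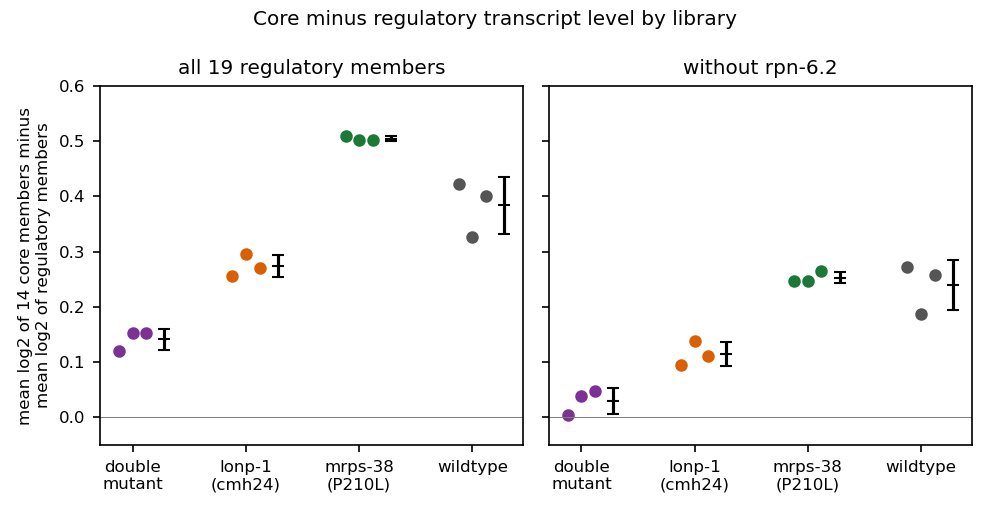
Each point is 1 library, with the mean log2 normalized count of the 14 core genes minus that of the regulatory genes on the vertical axis, for all 19 regulatory genes (left) and without rpn-6.2 (right); bars are the mean and SD of 3 libraries. With all genes the 4 genotypes do not overlap; without rpn-6.2, mrps-38(P210L) and wildtype worms overlap, with means of 0.253 and 0.239.

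In the double mutant every core gene was lower than in wildtype worms, while the regulatory genes moved in both directions. Against wildtype, 29 of the 33 members were lower in the double mutant and 3 higher (33.6% and 40.9% of all genes), with a median log2 fold change of -0.30 where that of all genes was 0.09. Of the genes of like abundance 43.5% were lower and the median was -0.07. All 14 core genes fell, with a median of -0.40. Of the 19 regulatory genes, 15 fell and 3 rose, with a median of -0.18; the medians were -0.26 for the ATPases, -0.03 for the other base genes and -0.23 for the lid. Under total reads the counts were 28 lower and 3 higher (32.8% and 41.6% of all genes), and with TMM factors 30 lower and 1 higher (39.3% and 35.1%). Without any 1 library, between 26 and 29 members were lower.

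The core gene pbs-5 had 4046, 4082 and 3836 normalized counts in the double mutant, which was within the lonp-1(cmh24) range at its upper end and below it at its lower end, and far below the wildtype values given above. Its log2 fold change was -0.64 ± 0.06 against wildtype and -0.01 ± 0.06 against lonp-1(cmh24) (limma, adjusted p = 5.64e-07 and 0.85). The decrease of pbs-4 against wildtype was as large (-0.65 ± 0.06; limma, adjusted p = 3.87e-07). It had 2597, 2597 and 2669 normalized counts in the double mutant, against 4336, 3887 and 4106 in wildtype worms. The abundant gene pas-3 had 4096, 4138 and 4170 normalized counts in the double mutant, and pbs-3 had 2404, 2520 and 2518, each below its wildtype libraries (log2 fold changes -0.40 ± 0.05 and -0.22 ± 0.05; limma, adjusted p = 5.06e-06 and 8.82e-04). The ATPase gene rpt-3 had 3030, 2953 and 2867 normalized counts in the double mutant, also below every wildtype library (log2 fold change -0.20 ± 0.04; limma, adjusted p = 7.98e-04).

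The members higher in the double mutant than in wildtype worms were rpn-6.2, rpn-2 and rpn-1. For rpn-2 the libraries of the double mutant had 5062, 5074 and 4789 normalized counts, all above the wildtype ones (log2 fold change 0.16 ± 0.05; limma, adjusted p = 0.00882), but with TMM factors rpn-2 was at 0.035 and not called. The gene rpn-1 had 4578, 4762 and 4735 normalized counts in the double mutant, against 4310, 4425 and 4343 in wildtype worms (log2 fold change 0.11 ± 0.04; limma, adjusted p = 0.0327), and was at -0.019 and not called with TMM factors. The gene that passed in neither direction was rpn-6.1, at -0.10 ± 0.05 (limma, adjusted p = 0.0953).

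The effect of the mrps-38 mutation on the lonp-1(cmh24) background was read from the double mutant against lonp-1(cmh24). Of the 33 members, 12 were higher in the double mutant and 1 lower (29.8% and 24.5% of all genes), with a median log2 fold change of 0.09 against 0.03 for all genes. Of the 1498 genes of like abundance, 41.2% were higher and 17.9% lower, with a median of 0.10, so the members' median was no higher than theirs. By particle, 10 of 19 regulatory genes rose and 0 fell, while 2 of 14 core genes rose and 1 fell. These directions were not kept under other scalings: TMM factors gave 3 higher and 8 lower (21.4% and 34.3% of all genes), and total reads 1 higher and 17 lower (18.3% and 42%), with all-gene medians of -0.10 and -0.18. The members' median was 0.06 above that of all genes under each of these 3 scalings, but not above that of the genes of like abundance.

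All 4 base genes without ATPase activity were higher in the double mutant, with a median of 0.25. For rpn-1 the 4578, 4762 and 4735 normalized counts of the double mutant stood against 3967, 3830 and 3810 in lonp-1(cmh24), a log2 fold change of 0.28 ± 0.04 (limma, adjusted p = 1.01e-04). For rpn-2 the log2 fold change was 0.25 ± 0.05 and for the ubiquitin receptor rpn-13 it was 0.24 ± 0.05 (limma, adjusted p = 6.91e-04 and 7.37e-04). The receptor rpn-10 had 2545, 2603 and 2579 normalized counts in the double mutant, against 2257, 2288 and 2190 in lonp-1(cmh24), and rose by 0.20 ± 0.04, but was at -0.015 under total reads. With TMM factors rpn-1 (0.15) and rpn-2 (0.12) were called, and rpn-13 (0.11) and rpn-10 (0.067) were not. Under total reads none of the 4 was called, with rpn-1 at 0.064, rpn-2 at 0.040 and rpn-13 at 0.026. In each of these genes the normalized counts of both genotypes were separate.

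The lid gene rpn-3 rose by 0.21 ± 0.04, and was at -0.0033 under total reads and not called with either other scaling. Among the core genes pbs-6 rose by 0.16 ± 0.05 and pas-6 by 0.15 ± 0.06, both negative under total reads (-0.049 and -0.069) and called with neither other scaling. The beta ring gene pbs-6 had 2165, 2410 and 2485 normalized counts in the double mutant, against 2034, 2116 and 2139 in lonp-1(cmh24). The alpha ring gene pas-7 was the member that fell, with 2683, 2913 and 2903 normalized counts in the double mutant, against 3113, 3222 and 3206 in lonp-1(cmh24) (log2 fold change -0.17 ± 0.05; limma, adjusted p = 0.00734). In rpn-11, the regulatory gene at the low end of this comparison, the groups overlapped, with 3424, 3227 and 3164 normalized counts in the double mutant against 3183, 3586 and 3415 in lonp-1(cmh24) (log2 fold change -0.05 ± 0.05; limma, adjusted p = 0.419). The gene rpn-6.1 rose by 0.13 ± 0.05 and was at -0.087 under total reads. Without lonp-1(cmh24) replicate 1, 2 members were lower instead of 1.

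**Figure D4:**
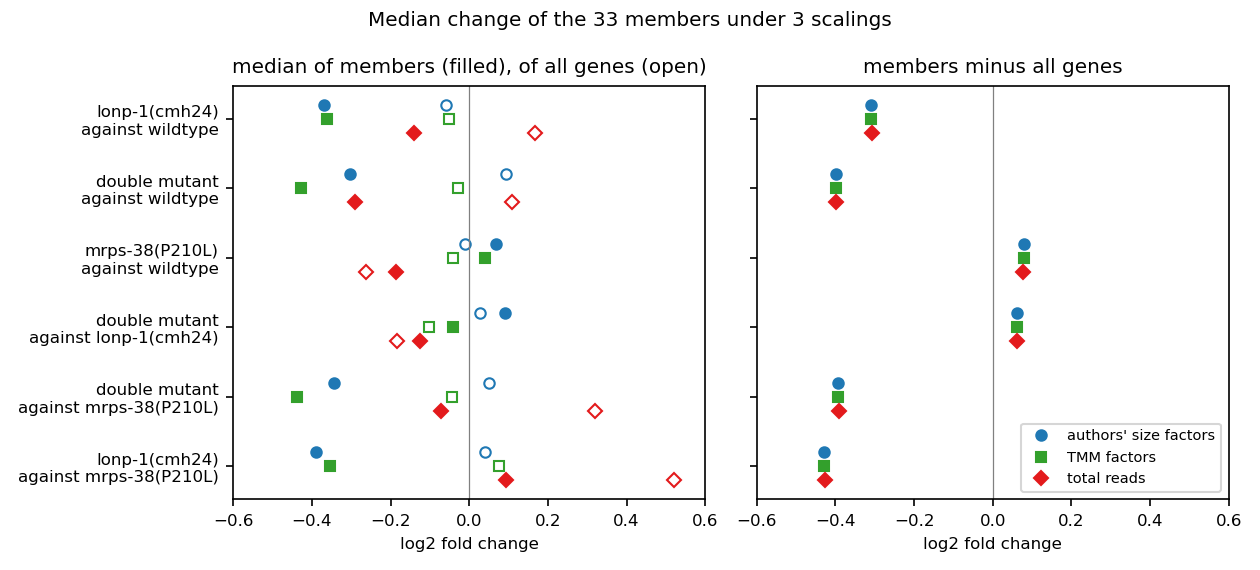
The left panel shows the median log2 fold change of the 33 proteasome genes (filled) and of all genes tested (open) in each comparison under the authors' size factors, TMM factors and total reads, and the right panel shows the first minus the second. In lonp-1(cmh24) against wildtype the members' median is -0.37 under the authors' size factors and -0.14 under total reads, while the difference from all genes is -0.31 under both.

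In mrps-38(P210L) against wildtype worms the proteasome genes moved in both directions. Under the authors' size factors 11 were higher and 5 lower (31.5% and 34.7% of all genes), with a median log2 fold change of 0.07 against -0.01 for all genes. Total reads gave 0 higher and 22 lower (16.9% and 49.1% of all genes), with medians of -0.19 for the members and -0.26 for all genes, so that the members' median was 0.08 above that of all genes under both scalings. Of the 1498 genes of like abundance, 51.3% were higher and the median was 0.17. Without mrps-38(P210L) replicate 2, 3 members were lower; leaving out each of the other libraries in turn gave 4 or 5.

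Apart from rpn-6.2, the members at the low end were rpn-8, pbs-4, rpn-12 and rpt-4. The lid gene rpn-8 had 3155, 3001 and 3068 normalized counts in mrps-38(P210L), against 3744, 3640 and 3644 in wildtype worms, and every mutant library was lower (log2 fold change -0.26 ± 0.04; limma, adjusted p = 1.41e-04). The core gene pbs-4 had 3796, 3604 and 3486 normalized counts in mrps-38(P210L), below the wildtype values given above (log2 fold change -0.18 ± 0.06; limma, adjusted p = 0.0152). The ATPase gene rpt-4 fell by 0.15 ± 0.05 and the lid gene rpn-12 by 0.17 ± 0.06.

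None of the 11 members higher under the authors' size factors was called higher under total reads. At the high end stood rpn-6.1, with 2945, 2914 and 3010 normalized counts in mrps-38(P210L), against 2394, 2301 and 2162 in wildtype worms. Its log2 fold change was 0.37 ± 0.05 (limma, adjusted p = 2.64e-05), and 0.12 under total reads. The core gene pbs-2 had 4556, 5028 and 4835 normalized counts in mrps-38(P210L), against 3830, 3860 and 4125 in wildtype worms, with no overlap (log2 fold change 0.29 ± 0.05; limma, adjusted p = 2.43e-04), and a log2 fold change of 0.032 under total reads. For pbs-5 the mrps-38(P210L) libraries had 7417, 7660 and 6533 normalized counts, all above wildtype (log2 fold change 0.21 ± 0.06; limma, adjusted p = 0.00757), but under total reads the log2 fold change of pbs-5 was -0.047. The genes rpn-1 (0.27 ± 0.04), rpt-5 (0.26 ± 0.04) and rpn-11 (0.23 ± 0.05) were also higher under the authors' size factors, and rpn-11 was at -0.023 under total reads. For rpn-11 the counts were 4602, 4761 and 4584 in mrps-38(P210L), against 3963, 3873 and 4040 in wildtype worms, which did not overlap. The scaffold gene rpn-2 had 4998, 5220 and 4782 normalized counts in mrps-38(P210L), above all 3 wildtype libraries (log2 fold change 0.17 ± 0.05; limma, adjusted p = 0.00787), and was at -0.088 under total reads.

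Other members did not pass under the authors' size factors. The ATPase gene rpt-3 had 3517, 3557 and 3512 normalized counts in mrps-38(P210L) and a log2 fold change of 0.06 ± 0.04 (limma, adjusted p = 0.254). The receptor gene rpn-10 had 3083, 3025 and 3051 (0.07 ± 0.04; limma, adjusted p = 0.156). For pbs-3 the counts were 2971, 2961 and 2917 (0.03 ± 0.05; limma, adjusted p = 0.602), and these overlapped with the wildtype counts of pbs-3, while those of rpt-3 and rpn-10 lay just above theirs. Under total reads rpt-3, rpn-10 and pbs-3 were at -0.20, -0.19 and -0.23.

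Against mrps-38(P210L), 28 members were lower and 1 higher in the double mutant (40% and 43.6% of all genes), and 31 were lower and 1 higher in lonp-1(cmh24) (38.8% and 42.6% of all genes). Total reads gave 15 lower and 6 higher in the double mutant (31.3% and 51.7% of all genes), and 6 lower and 13 higher in lonp-1(cmh24) (19.6% and 58.9%). The members' median stood 0.39 below that of all genes in the double mutant and 0.43 below it in lonp-1(cmh24) under all 3 scalings. The genes of like abundance also fell, with medians of -0.25 in the double mutant and -0.38 in lonp-1(cmh24) beside -0.34 and -0.39 for the members, so in lonp-1(cmh24) the members lay close to them. These comparisons share libraries with those against wildtype. The gene pbs-5 was 0.85 ± 0.06 lower on the log2 scale in the double mutant (-0.85) and 0.84 ± 0.06 lower in lonp-1(cmh24) (-0.84; limma, adjusted p = 1.67e-08 and 3.03e-08). The member that was higher in both was rpn-6.2, by 2.41 ± 0.11 in the double mutant and 1.38 ± 0.11 in lonp-1(cmh24) (limma, adjusted p = 2.28e-10 and 7.25e-08).

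An interaction term asked whether the log2 effect of both mutations together differed from the sum of their single effects. It was positive for 5 members and negative for 5 (34.4% and 31.6% of all genes), with a median of 0.01. The 3 core genes with an interaction, pas-7, pbs-2 and pbs-5, were all negative, while 5 of 7 regulatory genes were positive. TMM factors gave 3 positive and 10 negative (30.7% and 36.5% of all genes), and total reads 8 positive and 2 negative (35.6% and 29.8%). The split by particle was not kept. With TMM factors 0 core genes were positive and 5 negative, beside 3 and 5 regulatory genes. Under total reads the core had 0 and 0, and the regulatory particle 8 and 2. For the lid gene rpn-12, the sum of the single effects would be a log2 change of -0.45 ± 0.06 plus -0.17 ± 0.06, and the double mutant had -0.35 ± 0.06, so the interaction was 0.28 ± 0.08 (limma, adjusted p = 0.00743), though with TMM factors it was 0.18 and not called. For rpn-11 it was -0.28 ± 0.07 (limma, adjusted p = 0.00429). The core gene with the highest value, pas-5, did not pass (0.12 ± 0.14; limma, adjusted p = 0.474); it had 3329, 3520 and 3563 normalized counts in the double mutant and 4049, 4308 and 4450 in mrps-38(P210L), beside the values of lonp-1(cmh24) and wildtype worms given above. The number of negative members was 3 without double mutant replicate 1 or 3, lonp-1(cmh24) replicate 2 or wildtype replicate 2 or 3, and 2 without lonp-1(cmh24) replicate 3 or mrps-38(P210L) replicate 2.

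The members with a decimal in their names are paralogs for the same lid subunit and are described apart. On build WBcel235 both lie on chromosome III on the minus strand, rpn-6.1 at 6959110 to 6962001 with 7 exons in its largest transcript and rpn-6.2 at 8999817 to 9001999 with 6. The gene rpn-6.2 had 652, 680 and 751 normalized counts in the double mutant, 326, 351 and 340 in lonp-1(cmh24), 114, 121 and 155 in mrps-38(P210L), and 472, 550 and 513 in wildtype worms. No library of any genotype reached the range of another. The gene rpn-6.1 had 2085, 2194 and 2126 normalized counts in the double mutant, 2048, 1915 and 1906 in lonp-1(cmh24), 2945, 2914 and 3010 in mrps-38(P210L), and 2394, 2301 and 2162 in wildtype worms.

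Against wildtype, the log2 fold change of rpn-6.2 was 0.44 ± 0.11 in the double mutant, -0.59 ± 0.11 in lonp-1(cmh24) and -1.97 ± 0.11 in mrps-38(P210L) (limma, adjusted p = 0.00255, 3.34e-04 and 1.57e-08). The double mutant exceeded lonp-1(cmh24) by 1.03 ± 0.11 (limma, adjusted p = 5.43e-06). The interaction was 3.00 ± 0.15 (limma, adjusted p = 5.65e-09). These signs were the same under TMM factors and total reads. Without mrps-38(P210L) replicate 3, which also had the most sperm reads of its group, the log2 fold change in mrps-38(P210L) was -2.11.

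Read per length within the same library, rpn-6.2 made up 25.6% ± 1.4 of the summed FPKM of both paralogs in the double mutant, 15.5% ± 0.97 in lonp-1(cmh24), 4.45% ± 0.65 in mrps-38(P210L) and 19.2% ± 1.7 in wildtype worms (SD, n = 3 each). Reads that match both paralogs could have been split or dropped in the authors' counting. Sperm transcripts moved with rpn-6.2 in part. Of 31 tested genes for major sperm protein, 29 were higher in the double mutant than in wildtype worms (40.9% of all genes). All 31 were lower in mrps-38(P210L) (34.7% of all genes). In lonp-1(cmh24), where rpn-6.2 also fell, 0 of the 31 were higher and 1 lower (30.6% and 32.1% of all genes). Their median log2 fold change there was 0.33. The part of sperm transcripts in the rpn-6.2 result was not tested.

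**Figure D5:**
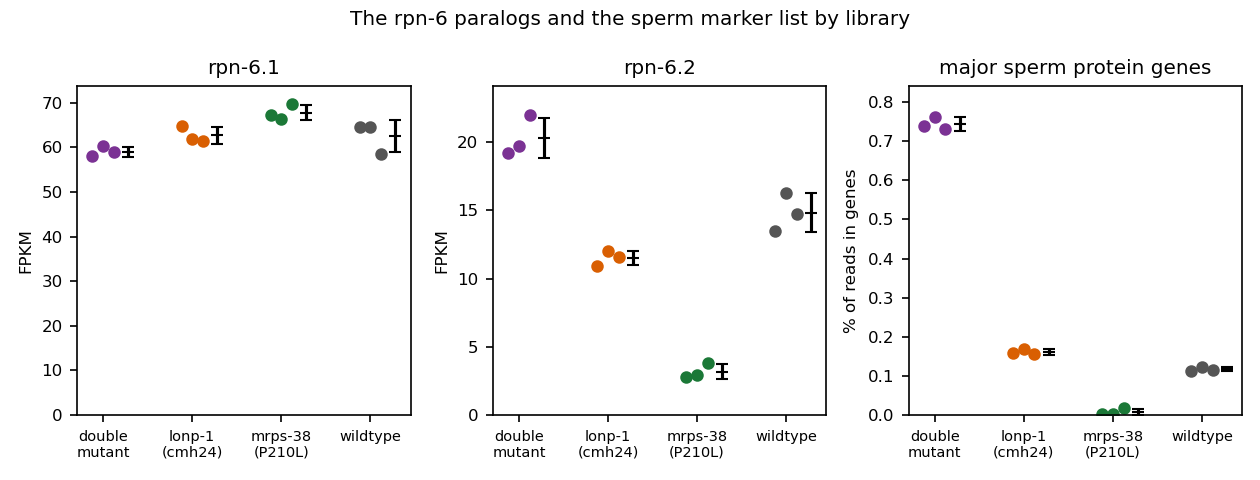
FPKM of rpn-6.1 (left) and rpn-6.2 (middle) and the percentage of reads in genes for major sperm protein (right) are drawn for every library of the 4 genotypes, with bars for the mean and SD of 3 libraries. The mean level of rpn-6.2 is 20.3 FPKM in the double mutant and 3.17 FPKM in mrps-38(P210L), against 14.8 FPKM in wildtype worms. The genotype means of rpn-6.1 run from 59.0 FPKM in the double mutant to 67.8 FPKM in mrps-38(P210L).

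Genes that act with the proteasome moved in both directions. Of 7 genes of the SKN-1A pathway, 4 were higher and 1 lower in lonp-1(cmh24), 2 higher and 1 lower in mrps-38(P210L), and 6 higher and 1 lower in the double mutant, each against wildtype. Of all genes, 30.6% and 32.1%, 31.5% and 34.7%, and 40.9% and 33.6% were called in these directions. Under total reads the counts were 6 and 0, 2 and 5, and 6 and 1. The matching shares of all genes were then 41.6% and 20.5%, 16.9% and 49.1%, and 41.6% and 32.8%. With TMM factors the counts were 4 and 1, 2 and 2, and 4 and 1. In the double mutant 35.1% and 39.3% of all genes were then called. The 7 genes were skn-1, ddi-1, png-1, sel-1, sel-11, aip-1 and wdr-23. They were counted without regard to whether each promotes or opposes SKN-1A, so the counts give no direction of the pathway. Mean normalized counts of wdr-23 were 1809 in the double mutant, 1828 in lonp-1(cmh24), 2063 in mrps-38(P210L) and 1488 in wildtype worms. The gene skn-1, counted over all its isoforms, stood at 4148 ± 105 normalized counts in the double mutant, 3686 ± 118 in lonp-1(cmh24), 4470 ± 274 in mrps-38(P210L) and 2865 ± 112 in wildtype worms (SD, n = 3 each). Its log2 fold change against wildtype was 0.53 ± 0.05, 0.36 ± 0.05 and 0.64 ± 0.05 in the 3 mutants (limma, adjusted p = 1.19e-06, 5.37e-05 and 4.59e-07), and it was called higher in all 3 under total reads too.

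The protease gene ddi-1 was higher in the double mutant (0.29 ± 0.06) and in lonp-1(cmh24) (0.28 ± 0.06) and lower in mrps-38(P210L) (-0.43 ± 0.06), also under total reads. The glycanase gene png-1 was lower in the double mutant (-0.20 ± 0.08) and lonp-1(cmh24) (-0.25 ± 0.08), and at -0.13 ± 0.08 in mrps-38(P210L) it did not pass; under total reads it was at -0.02 in lonp-1(cmh24) and not called. The proteasome-interacting zinc finger gene aip-1 rose in the double mutant (0.44 ± 0.08) and stood at 0.12 ± 0.08 in lonp-1(cmh24) and -0.16 ± 0.08 in mrps-38(P210L), where it did not pass under the authors' size factors; under total reads these were called, at 0.35 and -0.41.

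Of 10 proteasome-associated factors, 2 were higher and 3 lower in lonp-1(cmh24), 4 higher and 3 lower in mrps-38(P210L), and 3 higher and 3 lower in the double mutant. The matching shares of all genes were 30.6% and 32.1%, 31.5% and 34.7%, and 40.9% and 33.6%. Under total reads the counts of factors were 4 and 2, 0 and 6, and 3 and 3. All-gene shares were then 41.6% and 20.5%, 16.9% and 49.1%, and 41.6% and 32.8%. TMM factors gave 1 and 4 in the double mutant (35.1% and 39.3% of all genes). The activator gene psme-3 had the largest decrease of the 10 factors against wildtype in the double mutant (-0.72 ± 0.06) and in lonp-1(cmh24) (-0.74 ± 0.06). It had 1038 ± 17.5 normalized counts in the double mutant and 1029 ± 58.5 in lonp-1(cmh24), against 1714 ± 86.7 in wildtype worms (SD, n = 3 each). The small lid-associated gene dss-1 was at -0.10 ± 0.07 in lonp-1(cmh24), where it did not pass and was at 0.13 under total reads, and rose by 0.28 ± 0.07 in the double mutant, where with TMM factors it was at 0.16 and not called. The gene akir-1, a nuclear factor, rose by 0.68 ± 0.06 in the double mutant.

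The genes for ubiquitin and its activating enzyme were counted with all genes named ubc and a number, 24 in all. The ubc genes were taken by name, without regard to what they conjugate. Of the 24, 9 were higher and 5 lower in lonp-1(cmh24) (30.6% and 32.1% of all genes). In mrps-38(P210L) 16 were higher and 2 lower (31.5% and 34.7% of all genes), and in the double mutant 10 and 7 (40.9% and 33.6%). Under total reads the mrps-38(P210L) counts were 5 higher and 5 lower (16.9% and 49.1% of all genes). TMM factors gave 8 higher and 10 lower in the double mutant (35.1% and 39.3% of all genes). The polyubiquitin gene ubq-1 was 0.18 ± 0.04 higher in lonp-1(cmh24), whereas ubq-2, which encodes ubiquitin fused to a ribosomal protein, was 0.68 ± 0.06 lower on the log2 scale (-0.68). The activating enzyme gene uba-1 was higher in the double mutant (0.20 ± 0.04), in lonp-1(cmh24) (0.18 ± 0.04) and in mrps-38(P210L) (0.41 ± 0.04). With TMM factors it was at 0.077 in the double mutant and not called, and under total reads it was at 0.15 in mrps-38(P210L), still called. Of 13 genes of the CDC-48 segregase, which extracts ubiquitinated proteins, 9 were higher and 1 lower in the double mutant (40.9% and 33.6% of all genes). In lonp-1(cmh24) 6 were higher and 2 lower (30.6% and 32.1% of all genes). In mrps-38(P210L) 1 was higher and 7 lower (31.5% and 34.7% of all genes). Under total reads the same sides led, and they also led among all genes. The all-gene shares were then 41.6% higher and 32.8% lower in the double mutant, 41.6% and 20.5% in lonp-1(cmh24), and 16.9% and 49.1% in mrps-38(P210L).

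Other large cytosolic complexes were read the same way, and the differences between lists were not tested. In lonp-1(cmh24), where 32.1% of all genes were lower, all 11 genes of the translation factor eIF3 were lower (median -0.62). So were 76 of 78 genes of the cytosolic ribosome (median -0.60) and 7 of 8 of the chaperonin CCT (median -0.36). Of 7 genes of the COP9 signalosome, which is built like the lid, 2 were higher and 1 lower (30.6% and 32.1% of all genes), with a median of 0.06. The 7 are the csn genes and cif-1, which had 3151 ± 124 normalized counts, against 4460 ± 232 in wildtype worms (SD, n = 3 each). Under total reads 10 eIF3, 74 ribosome and 3 CCT genes were lower (20.5% of all genes), and 6 COP9 genes were higher (41.6% of all genes). In mrps-38(P210L), 8 of 11 eIF3 genes, 70 of 78 ribosome genes and 8 of 8 CCT genes were higher (31.5% of all genes). The medians of these lists were 0.20, 0.49 and 0.65. Under total reads the counts were 3, 51 and 7 (16.9% of all genes), and the eIF3 median was -0.06. In the double mutant, 11 of 11, 72 of 78 and 6 of 8 were lower than in wildtype worms (33.6% of all genes).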

How the data were processed

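RNA-seq of 12 whole-worm libraries was read from the authors' deposited tables. Per the submitters' processing notes the tools were STAR, featureCounts and DESeq2, with build WBcel235; versions and the strand setting are not given in the sources used here. As main values, in the unit signal, the read counts that the authors divided by size factors were used. Dividing out the step of 1 read gave whole reads, within 0.01, for 100% of values, and the FPKM values deposited by the authors equal reads over length and library total. Libraries held 22614493 to 22890539 reads; the size factors ran from 0.848 to 1.22.

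The test was limma 3.58.1 (R 4.3.3, trend, robust) on log2(normalized count + 1) for the 15717 genes with a mean of at least 10. All 12 libraries entered 1 fit with 7 contrasts, two-sided, with Benjamini-Hochberg adjustment over all genes and a threshold of 0.05. A log2 fold change is on that scale, first named genotype over the second. Alternatives were other pseudocounts (0.5 and 5), filters (none and a mean of 50), TMM factors, total reads, FPKM (log2(FPKM + 0.1), mean of at least 0.5), edgeR 4.0.16 and DESeq2 1.42.0 on recovered reads, a replicate block, the compared groups alone, and each library left out.

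The members and lists were chosen with earlier results of these data known. Values in every library are given for the members with the extreme fold changes per particle, the highest and lowest FPKM, pbs-5, rpt-3, rpn-10 and the rpn-6 paralogs; others shown were chosen after their values were seen. Of the 33 members, 10 overlap another gene in the table, and without a stated strand setting their reads cannot be told apart with certainty. Sequences were not used here.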

Additional observations from a re-analysis of the deposited data

Results flagged for a closer look

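For 10 proteasome genes the double mutant differed from the sum of the effects of the single mutations (interaction term, limma on log2 normalized counts, adjusted p under 0.05 over all genes), a smaller share than among all genes, of which 34.4% were positive and 31.6% negative. The interaction was 3.00 for rpn-6.2, 0.29 for rpn-8, 0.28 for rpn-12, 0.27 for rpn-3 and 0.16 for rpt-1. It was -0.28 for rpn-11, -0.25 for rpn-6.1, -0.22 for pbs-5, -0.19 for pbs-2 and -0.17 for pas-7. The lid gene rpn-8 was called lower than wildtype in all 3 mutants, with 2915, 3040 and 2976 normalized counts in the double mutant, 2837, 2911 and 2973 in lonp-1(cmh24) and 3155, 3001 and 3068 in mrps-38(P210L), against 3744, 3640 and 3644 in wildtype worms. With TMM factors rpn-12 (0.18) and rpt-1 (0.053) were not called, and under total reads pbs-5 (-0.18), pbs-2 (-0.15) and pas-7 (-0.13) were not. The other 5 were called in the same direction under both.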

How the results depend on the processing

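Library scaling moved the results most. With total reads or the FPKM table, lonp-1(cmh24) against wildtype had 1 member higher and 17 (total reads) or 18 (FPKM) lower, mrps-38(P210L) against wildtype 0 and 22, the double against the single lonp-1 mutant 1 and 17, the double mutant against mrps-38(P210L) 6 and 15, lonp-1(cmh24) against mrps-38(P210L) 13 and 6, and the interaction 8 and 2. With TMM factors the double mutant had 1 member higher than wildtype, against lonp-1(cmh24) 3 higher and 8 lower, and the interaction was positive for 3 and negative for 10. The median over the members changed sign under total reads and FPKM in mrps-38(P210L) against wildtype (-0.19 each), in the double against the single lonp-1 mutant (-0.12 each; -0.042 with TMM) and in lonp-1(cmh24) against mrps-38(P210L) (0.095 each), and in the interaction with TMM (-0.091). Single members changed sign under both total reads and FPKM, with the same values to the digits given: in lonp-1(cmh24) against wildtype rpn-2 (0.14), rpn-1 (0.057), pbs-3 (0.031), rpn-6.1 (0.0048) and rpn-11 (0.0058); in mrps-38(P210L) against wildtype pbs-3 (-0.23), rpt-3 (-0.20), rpn-10 (-0.19), rpn-2 (-0.088), pbs-5 (-0.047) and rpn-11 (-0.023); in the double against the single lonp-1 mutant rpn-6.1 (-0.087), pas-6 (-0.069), pbs-6 (-0.049), rpn-10 (-0.015) and rpn-3 (-0.0033). With TMM, rpn-1 in the double mutant against wildtype was at -0.019 and rpn-6.1 against lonp-1(cmh24) at -0.0051. Each scaling shifts every gene of a library by the same log2 amount. Leaving out rpn-6.2 changed the core minus regulatory difference to 0.013 in mrps-38(P210L) against wildtype, -0.21 in the double mutant against wildtype, -0.085 against lonp-1(cmh24) and -0.22 against mrps-38(P210L), and -0.14 in lonp-1(cmh24) against mrps-38(P210L). With 1 library left out, the members lower ranged from 3 to 5 in mrps-38(P210L) against wildtype, from 1 to 2 in the double against the single lonp-1 mutant and from 2 to 6 in the interaction. Replicate numbers did not pair the libraries: of 18 same-numbered pairs, 1 correlated above 0.1 (range -0.159 to 0.122), and 3 of 12 libraries correlated best with their own number. The fit with the replicate number as a block gave 0 higher and 32 lower in lonp-1(cmh24) against wildtype, 12 and 5 in mrps-38(P210L), 2 and 28 in the double mutant, and 10 and 1 in the double against the single lonp-1 mutant. Other pseudocounts and filters, edgeR, DESeq2 and the fit of the compared groups alone kept every count of members within 1.5 times. Depth was even between libraries, and the least abundant member, rpn-6.2, still had over 100 normalized counts in each library of mrps-38(P210L).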

Other observations

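Among the genes that act with the proteasome, ubxn-5 and ubc-24 had an order of genotypes like that of rpn-6.2 at its extremes. The CDC-48 cofactor gene ubxn-5 had 860 ± 28.8 normalized counts in the double mutant, 200.8 ± 13.9 in lonp-1(cmh24), 10.1 ± 7.7 in mrps-38(P210L) and 131 ± 8.1 in wildtype worms (SD, n = 3 each). The conjugating enzyme gene ubc-24 had 120 ± 9.5, 26.6 ± 1.7, 1.17 ± 1.17 and 23.3 ± 5.3 in the same genotypes (SD, n = 3 each). Both were picked after their values were seen. Their log2 fold changes against wildtype were 2.71 and 2.33 in the double mutant and -3.82 and -3.63 in mrps-38(P210L). The value of ubxn-5 in lonp-1(cmh24) was 0.62 ± 0.39 and did not pass, while rpn-6.2 fell by 0.59. The sperm genes moved with them, and their part in these values was not tested.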
